A study of Mus musculus with 13 samples.

Results

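Of 9 genes of the red cell lineage, 8 could be followed across 13 arrays of sorted mouse bone marrow stem and progenitor cells. The genes were Gata1, Klf1, Epor, Alas2, Slc4a1, Car2, Hemgn, Tfrc and Car1, taken as a list of erythroid genes. A probe set, which queries part of a gene, counted for a gene if the probe annotation paired it with that gene alone. By this rule 102 of 229581 probe sets belonged to 8 of the genes, with 7 for Klf1 and up to 22 for Slc4a1, and Car1 was not analysed here. All 8 were among the 15123 genes measured and among the 10586 that entered the tests, which needed a mean log2 intensity above 5.996 over all arrays. Gata1 passed this threshold narrowly, with a mean of 6.004, followed by Klf1 with 6.04.

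Red cells arise from stem cells through progenitors in which GATA1 and KLF1, both DNA-binding transcription factors, switch on the genes of haem synthesis, the red cell membrane and globin. Erythropoietin, acting through its receptor, keeps the committed progenitors alive, and the transferrin receptor brings in the iron that haem needs. Cells of the stem and early progenitor compartments studied here lie upstream of this commitment, and most of these genes are known for strong expression in later cells. Transferrin receptor is also carried by dividing cells of many kinds.

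The mice were of the Bl/6 Taconic strain. Wild-type (WT) mice served as littermate controls, and mCG-PR mice, labelled mCG-PR N17, expressed the fusion protein PML-RARA of acute promyelocytic leukaemia from the murine Ctsg locus, whose gene encodes a protease of early myeloid cells. KLS cells (Kit-positive, lineage-negative, Sca1-positive stem cells and multipotent progenitors) came from 4 WT mice, 2 of them 13 weeks old (replicates 1 and 2) and 2 of them 12 weeks old (replicates 3 and 4). They also came from 3 mCG-PR mice of 6 weeks and 2 mCG-PR mice of 13 weeks. SLAM cells, enriched for long-term stem cells by receptors of the SLAM family, came from 2 WT mice of 6 weeks and 2 mCG-PR mice of 7 weeks. How the sorts were gated is not stated in the labels. The study's design text says that marrow came from individual mice. A number in each sample's label, whose meaning is not given, runs on without a large gap over 11 arrays and is lower for WT KLS replicates 1 and 2. Among WT KLS mice this is also the split by age, so age and whatever the number marks cannot be told apart.

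The median intensity per array was 98.6 to 115.3, and precision is limited by how few arrays each group has. Cd48, a surface receptor that SLAM sorts select against, had a log2 intensity of 8.28 to 9.61 in KLS and 4.24 to 5.56 in SLAM arrays, and Kit was at 9.56 to 10.51 throughout. Slamf1, a receptor of the SLAM family, was at 5.17 to 6.31 in KLS and at 7.68 and 7.47 in WT SLAM arrays. In mCG-PR SLAM arrays it was at 6.21 and 6.63, so these overlapped with KLS arrays. Its difference between genotypes in SLAM cells was -1.16 ± 0.31 (limma adjusted p = 0.75), and what goes with it was not tested. Replicates correlated at 0.950 or higher across genes in KLS groups, against 0.828 in WT SLAM and 0.821 in mCG-PR SLAM, where genes are not independent replicates. The Y-linked genes Eif2s3y and Kdm5d were at 3.49 to 5.07 on 3 arrays (mCG-PR KLS 6 weeks replicate 3 and the 2 of mCG-PR SLAM), and at 6.92 or above on the other arrays. Ctsg was at 8.10 to 9.32 in WT KLS and 8.23 to 9.54 in mCG-PR KLS arrays; its level does not check the fusion.

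Promoters of 3 of the genes are shown because Hemgn and Tfrc differed between genotypes in opposite directions in KLS cells and because Alas2 is the haem synthesis gene of the set. RefSeq promoter sequences (GRCm38.p6, read by gene symbol and not by the coordinates of the array) were found for 6 of the 8 genes; Car2 and Slc4a1 had none in the table. Each is the stretch of 250 bases that ends just before the transcript start, 5′ to 3′ on the strand of the gene. Capitals mark matches on either strand to AGATAA or TGATAA, the letters that GATA factors bind, and to CCACNCCC, a form of the CACCC box that KLF1 binds. The Hemgn promoter lies at chr4:46404184-46404433 on the minus strand, the Alas2 promoter at chrX:150547167-150547416 on the plus strand, and that of the second of 2 listed Tfrc starts at chr16:32608872-32609121 on the plus strand.
Hemgn: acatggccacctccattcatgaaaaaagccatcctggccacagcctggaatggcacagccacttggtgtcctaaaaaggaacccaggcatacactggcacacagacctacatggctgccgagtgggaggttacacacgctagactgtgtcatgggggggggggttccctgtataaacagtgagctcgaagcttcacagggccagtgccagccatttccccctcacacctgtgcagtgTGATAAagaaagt
Alas2: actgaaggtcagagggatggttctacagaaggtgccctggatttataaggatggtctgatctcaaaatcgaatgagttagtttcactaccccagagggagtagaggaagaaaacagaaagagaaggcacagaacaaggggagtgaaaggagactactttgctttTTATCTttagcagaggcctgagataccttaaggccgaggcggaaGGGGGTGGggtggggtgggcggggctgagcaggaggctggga
Tfrc: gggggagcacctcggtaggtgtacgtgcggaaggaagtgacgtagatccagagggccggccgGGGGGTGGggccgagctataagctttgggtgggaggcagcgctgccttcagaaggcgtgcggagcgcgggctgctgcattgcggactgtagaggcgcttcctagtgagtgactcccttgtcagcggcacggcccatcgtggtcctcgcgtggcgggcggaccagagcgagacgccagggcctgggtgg
Hemgn held TGATAA at positions -13 to -8 from the start. Alas2 held AGATAA on the opposite strand at -86 to -81 and the CACCC letters on the opposite strand at -42 to -35. The Tfrc promoter shown held the CACCC letters on the opposite strand at -188 to -181 and no GATA letters, and that of the other Tfrc start held neither. Of the promoters not shown, Klf1 held TGATAA, Epor both kinds of match and Gata1 the CACCC letters alone. AGATAA or TGATAA stood in 4 of the 6 genes' promoters, against 16.6% of 32851 promoter windows of the same length, and CCACNCCC in 4 of 6 against 15.9%. The counts are per gene and the shares per window: Tfrc, with 2 windows, counted if either held a match. The letters overlap with no other motif searched, and CACGTG, the E-box, was found in none of the 6, against 6.02% of all windows.

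In KLS cells of both ages pooled, the changes of the 8 genes between genotypes were mixed in sign, with 3 positive and 5 negative. The younger mCG-PR mice had no WT KLS controls of their own age. In them the effects of age and genotype cannot be told apart, and the pooled values include these mice. Car2, a cytosolic carbonic anhydrase, and Hemgn, a nuclear protein of blood progenitors and erythroid cells, were lower on all 5 mCG-PR arrays than on any of the 4 WT arrays. Tfrc, the transferrin receptor, was higher on all 5. These differences were 1.62-fold for Car2, 1.66-fold for Hemgn and 1.65-fold for Tfrc, and none passed the test over all genes. The other 5 genes overlapped between the genotypes. In this comparison the arrays of the groups did not overlap for 3 of 8 members, 2 lower and 1 higher, against 4.2% of all genes tested (0.652% lower and 3.55% higher). By limma at an adjusted p under 0.05, 0 of 8 members passed, against 0.085% of all genes (9 of 10586), and at an unadjusted p under 0.05 it was 3 of 8 against 12.1%. The median change was -0.23 over the members and 0.09 over all genes. In sorted cells measured in bulk, fewer cells of a type and less RNA per cell cannot be told apart.

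**Figure D1:**
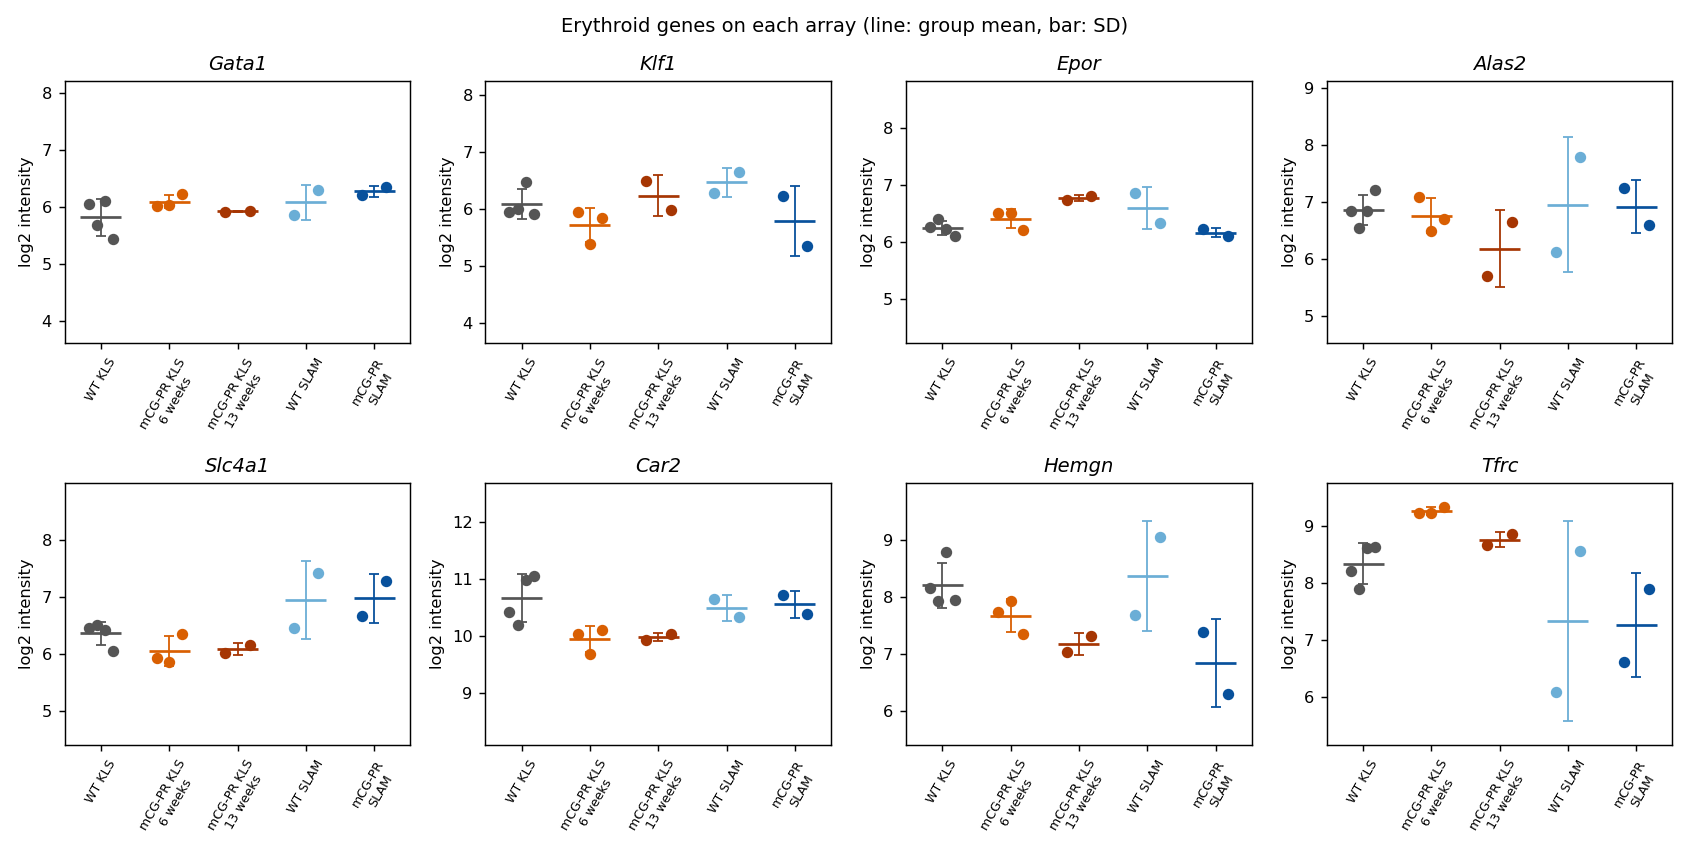
Log2 intensity (y axis) of each of the 8 genes on the 13 arrays, by group (x axis); each point is 1 array, the line is the group mean and the bar the SD. Car2 and Hemgn lie lower and Tfrc higher on all 5 mCG-PR KLS arrays than on the 4 WT KLS arrays, and the 2 WT SLAM arrays lie far apart for Tfrc, Alas2 and Hemgn.

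Car2 had a log2 intensity of 10.42, 10.19, 10.98 and 11.05 on WT KLS replicates 1 to 4. On the mCG-PR KLS arrays it was 10.03, 9.69 and 10.11 at 6 weeks and 9.93 and 10.04 at 13 weeks. The highest mCG-PR value stood just below the lowest WT value, and the WT mice of 12 weeks were above those of 13 weeks. The mean was 9.96 ± 0.16 (SD, n = 5) against 10.66 ± 0.42 (SD, n = 4), a change of -0.70 ± 0.18 (SE, limma adjusted p = 0.159, over alternatives 0.0712 to 0.433). All 10 of its probe sets were lower in mCG-PR KLS cells, by log2 differences from -1.57 to -0.14; they share the same RNA and are not replicates. Both ages gave a similar value, with -0.72 ± 0.21 at 6 weeks (limma adjusted p = 0.203) and -0.68 ± 0.24 at 13 weeks (limma adjusted p = 0.260), and 13 against 6 weeks differed by 0.04 ± 0.25. Against WT KLS replicates 3 and 4 alone, whose label numbers run on with the mCG-PR arrays, the change over both ages was -1.06 (limma adjusted p = 0.136).

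Hemgn was at 8.15, 7.93, 8.78 and 7.95 on WT KLS replicates 1 to 4. It was at 7.73, 7.92 and 7.35 on the mCG-PR KLS arrays of 6 weeks and at 7.04 and 7.31 on those of 13 weeks. The groups nearly touched: mCG-PR KLS 6 weeks replicate 2 stood next to WT KLS replicate 2, while both arrays of 13 weeks lay below all others of KLS cells. The mean over both ages was 7.47 ± 0.35 (SD, n = 5) against 8.20 ± 0.40 (SD, n = 4), a change of -0.73 ± 0.20 (limma adjusted p = 0.172, over alternatives 0.122 to 0.621). The change was -0.53 ± 0.21 at 6 weeks (limma adjusted p = 0.325) and -1.03 ± 0.24 at 13 weeks (limma adjusted p = 0.148), where the controls were nearest in age; 13 against 6 weeks differed by -0.49 ± 0.25 (limma adjusted p = 0.439). Of its 10 probe sets 9 were lower, with differences down to -1.14. With the mean of the probe sets in place of their median the change over both ages was -0.41 (limma adjusted p = 0.195) and at 13 weeks -0.46 (limma adjusted p = 0.205). With WT KLS replicates 3 and 4 as the sole controls the change over both ages was -0.89 (limma adjusted p = 0.485).

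Tfrc was at 8.22, 7.89, 8.63 and 8.63 on the WT KLS arrays. On the mCG-PR KLS arrays it was at 9.24, 9.23 and 9.34 at 6 weeks and at 8.67 and 8.86 at 13 weeks. The 3 young mCG-PR mice stood clearly above every other array of the series, and the older ones lay just above the highest WT array. The change was 0.93 ± 0.18 at 6 weeks (limma adjusted p = 0.0797; the controls were older, and the effects of age and genotype cannot be told apart), 0.42 ± 0.21 at 13 weeks (limma adjusted p = 0.390) and 0.73 ± 0.18 over both ages (limma adjusted p = 0.155, over alternatives 0.0912 to 0.742). Between 13 and 6 weeks in mCG-PR mice the difference was -0.50 ± 0.22 (limma adjusted p = 0.375). Of its 21 probe sets, 20 were higher in mCG-PR KLS over both ages, and all 21 were lower at 13 than at 6 weeks. Without WT KLS replicate 3 the change at 6 weeks was 1.02 and passed (limma adjusted p = 0.0361). With WT KLS replicates 3 and 4 as the sole controls it was 0.44 over both ages (limma adjusted p = 0.664), 0.64 at 6 weeks and 0.14 at 13 weeks.

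Mitotic genes were also higher on mCG-PR KLS arrays, though none passed. The mean log2 intensity of 17 mitotic genes, such as Mki67 and Top2a, was 7.27 to 8.30 on WT KLS arrays and 8.15 to 8.68 on mCG-PR KLS arrays, and all 17 had a positive change over both ages (median 0.63, 0 passed). WT KLS replicate 2 had the lowest mean of that list and the lowest Tfrc value among KLS arrays. WT KLS replicate 1 was next lowest in both, at 7.68 and 8.22. Replicates 2 and 3 of mCG-PR KLS 6 weeks had the highest list means (8.68 and 8.47), with Tfrc at 9.23 and 9.34. The order was not the same for every array. WT KLS replicate 3 (8.30) and both mCG-PR arrays of 13 weeks (8.26 and 8.38) had higher list means than mCG-PR KLS 6 weeks replicate 1 (8.15). Their Tfrc values were lower, at 8.63, 8.67 and 8.86 against 9.24. The part of cell division in the Tfrc difference was not tested. Of 10 megakaryocyte genes, which share GATA1 as a regulator, 6 were higher and 4 lower (median 0.06), with a list mean of 6.58 to 6.91 on WT and 6.62 to 6.84 on mCG-PR KLS arrays. Of 6 mast cell and basophil genes 5 were higher (median 0.52), with a list mean of 6.92 to 7.43 against 7.39 to 8.52, and its part in these values was not tested. Of 11 neutrophil and granulocyte genes 6 were lower (median -0.09), and S100a8, a calcium-binding protein gene of neutrophils, passed (-1.29 ± 0.20, limma adjusted p = 0.0213). Of 10 stem and progenitor genes 7 were lower (median -0.23, 0 passed), with Hlf at -0.71 ± 0.23 and Meis1 at -0.51 ± 0.17. Of 7 monocyte genes 4 were higher (median 0.33, 0 passed), with Ccr2 at 1.09 ± 0.24 and Csf1r at 0.77 ± 0.19. The neutrophil list mean was 8.81 to 8.97 on WT and 8.36 to 9.37 on mCG-PR KLS arrays, that of stem and progenitor genes 8.95 to 9.19 and 8.80 to 9.04, and that of monocyte genes 6.58 to 6.75 and 6.84 to 7.15. The part of these cells in the Car2, Hemgn and Tfrc values was not tested.

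**Figure D2:**
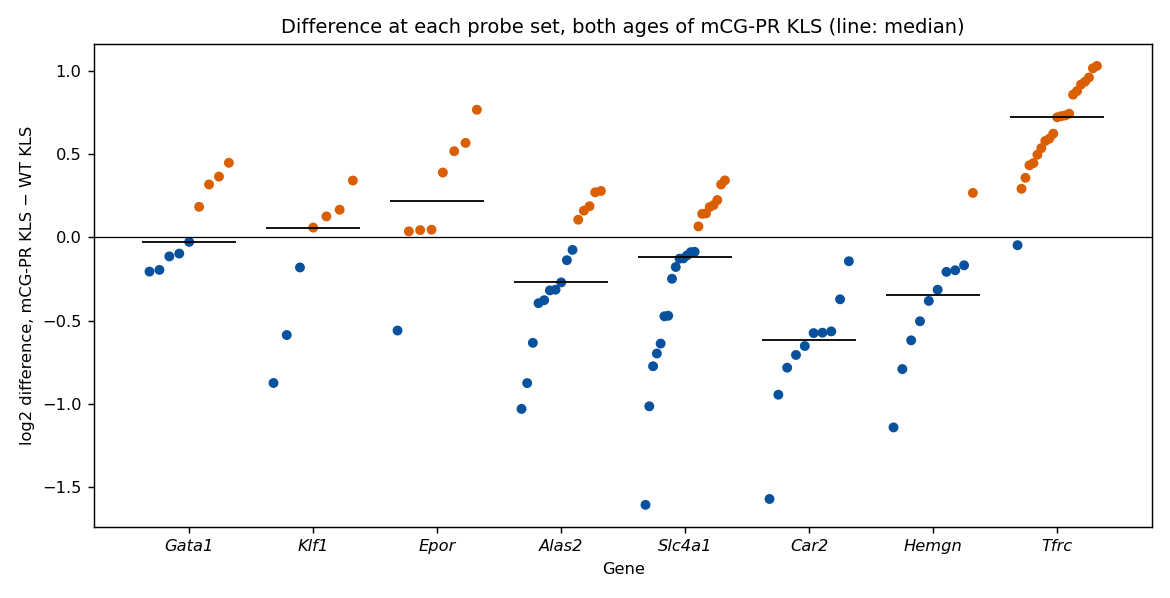
Log2 difference between mCG-PR KLS cells of both ages (n = 5) and WT KLS cells (n = 4) at each probe set (y axis), by gene (x axis); orange points are higher and blue points lower in mCG-PR, and the line is the median of the points. All 10 points of Car2 lie below 0 and 20 of 21 of Tfrc above it, while those of Gata1, Klf1, Slc4a1 and Alas2 lie on both sides.

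The other 5 genes, known for the committed red cell, overlapped between genotypes in KLS cells when both ages were pooled. Gata1, the master transcription factor, was at 5.43 to 6.10 on WT and 5.92 to 6.22 on mCG-PR KLS arrays (0.21 ± 0.15, limma adjusted p = 0.630). Klf1 was at 5.91 to 6.48 on WT and 5.39 to 6.49 on mCG-PR arrays (-0.16 ± 0.19, limma adjusted p = 0.773). Epor, the erythropoietin receptor, was at 6.11 to 6.41 on WT and 6.22 to 6.81 on mCG-PR arrays (0.30 ± 0.14, limma adjusted p = 0.425). These regulators and the receptor had gene values near the threshold for testing, which is a percentile of all genes and no measured background. Only 4 of 9 Gata1, 4 of 7 Klf1 and 5 of 8 Epor probe sets had a mean above it, though single ones reached 8.20 for Gata1 and 7.55 for Epor, and 4, 4 and 7 of them all, respectively, were higher in mCG-PR KLS cells.

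Epor was the only one of the 5 with separate groups at 1 age: both mCG-PR arrays of 13 weeks (6.73 and 6.81) stood above all 4 WT arrays. That change was 0.51 ± 0.16 (limma adjusted p = 0.230), and 25% of all genes had arrays that did not overlap in this comparison, where 4 of 8 members did not. By limma 0 of the 8 passed at 13 weeks, against 0.00945% of all genes, and 0 of 8 at 6 weeks, against 0.0378%; at 6 weeks the arrays of 3 of 8 members, against 11% of genes, did not overlap.

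Alas2, the first enzyme of haem synthesis in red cells, was at 6.85, 6.55, 6.85 and 7.21 on WT KLS arrays, at 7.10, 6.49 and 6.71 on mCG-PR arrays of 6 weeks and at 5.70 and 6.66 on those of 13 weeks. One mouse of 13 weeks was thus well below all other KLS arrays. The change at 13 weeks was -0.68 ± 0.26 (limma adjusted p = 0.290), and -0.20 without mCG-PR KLS 13 weeks replicate 1. Slc4a1, the anion exchanger band 3 of the red cell membrane, was at 6.44, 6.51, 6.42 and 6.05 on WT KLS arrays, 5.92, 5.86 and 6.35 at 6 weeks and 6.01 and 6.15 at 13 weeks. The groups overlapped only through WT KLS replicate 4 (-0.30 ± 0.15 over both ages, limma adjusted p = 0.435). Its probe sets were mixed, with 8 of 22 higher and 14 lower.

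Between 13 and 6 weeks within mCG-PR KLS cells the arrays of 5 of 8 members did not overlap, but with 2 arrays against 3 the same held for 30.8% of all genes. Klf1 was higher at 13 weeks by 0.51 ± 0.23 (limma adjusted p = 0.401) and Epor by 0.36 ± 0.17 (limma adjusted p = 0.417). By limma 0 of 8 members passed, against 0.00945% of genes.

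Among other erythroid genes in KLS cells of both ages, 0 of 90 tested in 8 lists passed by limma, against 0.085% of all genes. With so small a share, a count of 0 does not set these lists apart. Of 11 haem synthesis genes, 8 were higher and 3 lower (median 0.10), led by Alas1, the housekeeping form of the first enzyme (0.28 ± 0.16). Of 13 genes of iron handling 7 were higher (median 0.01), led by Slc25a28, a mitochondrial iron carrier (0.35 ± 0.13). Both medians were close to the 0.09 of all genes.

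Of 22 regulators of erythroid genes and their partners and antagonists, 16 were higher (median 0.06), and the smallest p belonged to Spi1, the myeloid factor that opposes GATA1 (0.44 ± 0.15, limma adjusted p = 0.276), and Ikzf1 (0.35 ± 0.13). Of 14 genes of erythropoietin signalling 12 were higher (median 0.10), with Cish, a target and inhibitor of STAT5 signalling, at 0.52 ± 0.16 (limma adjusted p = 0.212). Of 12 membrane and skeleton genes 8 were higher (median 0.03), of 11 other late erythroid genes 7 (median 0.11) and of 6 other carbonic anhydrases 4 (median 0.03); the 1 globin tested, Hba-x, was at 0.35 ± 0.15. In the list of late genes Bpgm, the enzyme that makes 2,3-bisphosphoglycerate in red cells, was lower (-0.37 ± 0.17, limma adjusted p = 0.411).

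**Figure D3:**
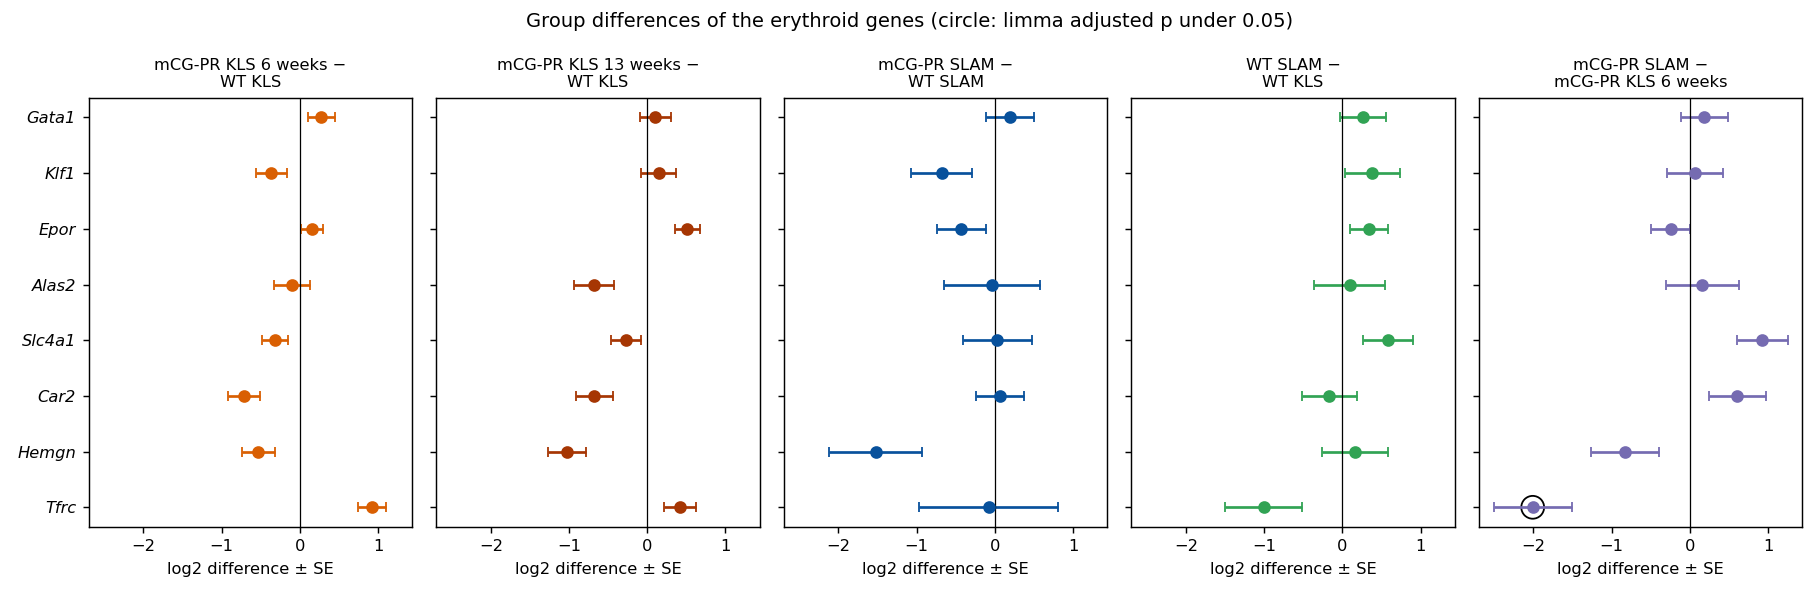
Log2 difference with its limma SE (x axis) for each gene (y axis) in 5 comparisons of groups; a circle marks an adjusted p under 0.05. Tfrc in mCG-PR SLAM against mCG-PR KLS cells (-2.01) is the only circled value, and the bars are widest where SLAM arrays are compared.

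In mCG-PR mice Tfrc was lower in SLAM than in KLS cells, the 1 difference among the members that passed the test in any comparison. Tfrc was at 6.62 and 7.91 on mCG-PR SLAM arrays, below all 3 mCG-PR KLS arrays of 6 weeks. The change was -2.01 ± 0.50 (4.03-fold lower, limma adjusted p = 0.0169, over alternatives 0.00562 to 0.278), and all 21 probe sets were lower. On simulated data this fit gave more false calls than its threshold allows. Of the 8 members 1 passed, lower, against 13.1% of all genes (12.3% lower), a share near the background; the arrays of 3 of 8 did not overlap, against 48.2%. Without mCG-PR SLAM replicate 1 the change was -1.36 and did not pass (limma adjusted p = 0.278), and with quantile normalisation it was -1.61 (limma adjusted p = 0.0936). Mitotic genes were lower in the same comparison, with 15 of 17 passing and a median of -2.13; their list mean was 6.13 and 6.35 on mCG-PR SLAM arrays. The part of cell division in this difference was not tested. Y-linked expression was low on both SLAM arrays and, of the KLS arrays compared, on replicate 3 alone. The differences were -3.75 ± 1.39 for Eif2s3y and -1.995 ± 0.95 for Kdm5d. What goes with it was not tested, for Tfrc or for other genes of this comparison.

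In WT mice the 2 SLAM arrays disagreed about Tfrc, with 6.10 on replicate 1 and 8.58 on replicate 2. The first was the lowest value of the series and the second lay within the range of WT KLS cells. The mean change was -1.01 ± 0.49 (limma adjusted p = 0.302); it was -2.24 without WT SLAM replicate 2 (limma adjusted p = 0.0448) and 0.23 without replicate 1 (limma adjusted p = 0.898). By limma 0 of 8 members passed in WT SLAM against WT KLS cells, with 0 at an unadjusted p under 0.05, against 3.12% of all genes passing and 17.7% at that unadjusted p. The arrays of 0 of 8 stood apart, against 35.2% of genes. WT SLAM mice were 6 and WT KLS mice 12 to 13 weeks old, and there the sorted population cannot be told apart from age. The mean of the 17 mitotic genes also differed between the 2 WT SLAM arrays, with 6.37 on replicate 1 and 7.22 on replicate 2. Of these genes 14 were higher on replicate 2 (median difference of all 17, 0.69). Their part in the Tfrc values was not tested.

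Slc4a1 and Car2 had higher means in mCG-PR SLAM than in mCG-PR KLS cells of 6 weeks, and neither passed. Slc4a1 was at 6.46 and 7.42 on WT SLAM and 6.67 and 7.28 on mCG-PR SLAM arrays, and both mCG-PR values lay above those of mCG-PR KLS cells of 6 weeks (0.93 ± 0.32, limma adjusted p = 0.0729; 0.0313 with equal weights for all arrays). In WT the difference was 0.59 ± 0.32 (limma adjusted p = 0.362). Car2 was at 10.65 and 10.33 on WT SLAM and 10.72 and 10.39 on mCG-PR SLAM arrays, within the WT KLS range and above the mCG-PR KLS arrays (0.61 ± 0.36 against those of 6 weeks, limma adjusted p = 0.311). Gata1, Klf1 and Epor differed by 0.18 ± 0.30, 0.06 ± 0.36 and -0.24 ± 0.25 in mCG-PR, and by 0.26 ± 0.29, 0.38 ± 0.35 and 0.34 ± 0.24 in WT cells.

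Of 90 other erythroid genes tested in the 8 lists, 4 passed in mCG-PR SLAM against mCG-PR KLS cells of 6 weeks, all lower. This was 4.44%, below the 13.1% of all genes. They were Alas1 (-1.19 ± 0.33, limma adjusted p = 0.0282), the iron-responsive RNA-binding protein gene Ireb2 (-0.95 ± 0.26), the iron-sulfur cluster gene Glrx5 (-1.03 ± 0.29) and the lymphoid and erythroid factor gene Ikzf1 (-1.50 ± 0.31, limma adjusted p = 0.00587). Of the 13 iron genes 11 had a negative change, with a median of -0.25 against -0.19 for all genes. In WT SLAM against WT KLS cells 1 of the 90 passed (1.11%, against 3.12% of all genes). It was Cish, higher by 1.49 ± 0.30 (limma adjusted p = 0.0171). Of the megakaryocyte list the platelet adhesion gene Vwf passed in WT (1.14 ± 0.21) and in mCG-PR cells (0.81 ± 0.22). In mCG-PR SLAM against KLS cells 2 of 11 neutrophil, 2 of 3 T and NK cell, 2 of 7 monocyte and 1 of 6 mast cell genes also passed, all lower. On simulated data both fits of SLAM against KLS cells gave more false calls than their threshold allows. This limits each pass named here.

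Between genotypes within SLAM cells, Hemgn showed the largest difference among the members. It was at 7.68 and 9.05 on WT SLAM and at 7.38 and 6.29 on mCG-PR SLAM arrays. Both mCG-PR values were lower, as in KLS cells, but the replicates of each group differed by more than 1 on the log2 scale. The change was -1.52 ± 0.60 (limma adjusted p = 0.794), and -0.84 without WT SLAM replicate 2. Of 11 neutrophil and granulocyte genes 10 were also lower in mCG-PR SLAM cells (median -1.69, 0 passed), with a list mean of 7.80 and 7.27 against 8.16 and 9.82, and their part in the Hemgn values was not tested. Klf1 was at 6.29 and 6.65 against 6.22 and 5.35 (-0.68 ± 0.40, limma adjusted p = 0.866) and Epor at 6.85 and 6.33 against 6.22 and 6.11 (-0.43 ± 0.32, limma adjusted p = 0.893). This fit recovered none of the changed genes on simulated data, and its count of 0 says nothing of the members. With 2 arrays against 2 the arrays of 3 of 8 members did not overlap, against 35.2% of all genes, and by limma 0 of 8 passed, against 0% of all genes; at an unadjusted p under 0.05 it was 1 of 8, Hemgn, against 6.27%.

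Car2, which was lower in mCG-PR KLS cells, differed by 0.06 ± 0.31 between genotypes in SLAM cells. The difference of the 2 genotype effects, SLAM minus KLS, was 0.76 ± 0.47 for Car2 (limma adjusted p = 0.787), so it was not shown to differ between the populations. For Tfrc it was -0.80 ± 0.71 (limma adjusted p = 0.908) and for Hemgn -0.79 ± 0.62 (limma adjusted p = 0.873). By this interaction test in limma 0 of 8 members passed, against 0% of all genes, and 0 of 8 had an unadjusted p under 0.05, against 7.82%. Both mCG-PR SLAM arrays had low Y-linked expression and both WT SLAM arrays did not, so that difference cannot be told apart from genotype in SLAM cells. Gata1 and Alas2 lie on the X chromosome and differed by 0.19 ± 0.31 and -0.04 ± 0.61.

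WT SLAM replicate 2 stood apart from the other arrays in these genes. Of the 8, 4 (Klf1, Alas2, Slc4a1 and Hemgn) had their highest value of the 13 arrays on it, against 13.6% of all genes tested. Alas2 was at 7.80 there against 6.12 on WT SLAM replicate 1, a difference of 1.68 that exceeded that of 98.1% of all genes, and for Tfrc the difference of 2.48 exceeded that of 99.6%. Membrane and skeleton genes (5 of 12 highest on it) and haem synthesis genes (4 of 11) were also often highest there. The same held for genes of erythropoietin signalling (5 of 14), iron handling (4 of 13) and erythroid regulation (6 of 22). Other late erythroid genes were nearer the share of all genes, with 2 of 11 (18.2%) highest on it. Of these, 4 of 11 were higher than on replicate 1 (median -0.21). None of 6 carbonic anhydrases was highest there, nor was the globin. Genes of some other lineages were, with 6 of 11 neutrophil and granulocyte, 4 of 5 B cell and 4 of 10 megakaryocyte genes highest on that array. Those of others were near or below the share of all genes, with 1 of 7 monocyte (14.3%), 1 of 6 mast cell and basophil (16.7%) and 0 of 3 T and NK cell genes. The neutrophil list mean was 9.82 on it against 8.16 on replicate 1 and 8.36 to 9.37 on KLS arrays. What these lineages add to the erythroid values of that array was not tested.

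**Figure D4:**
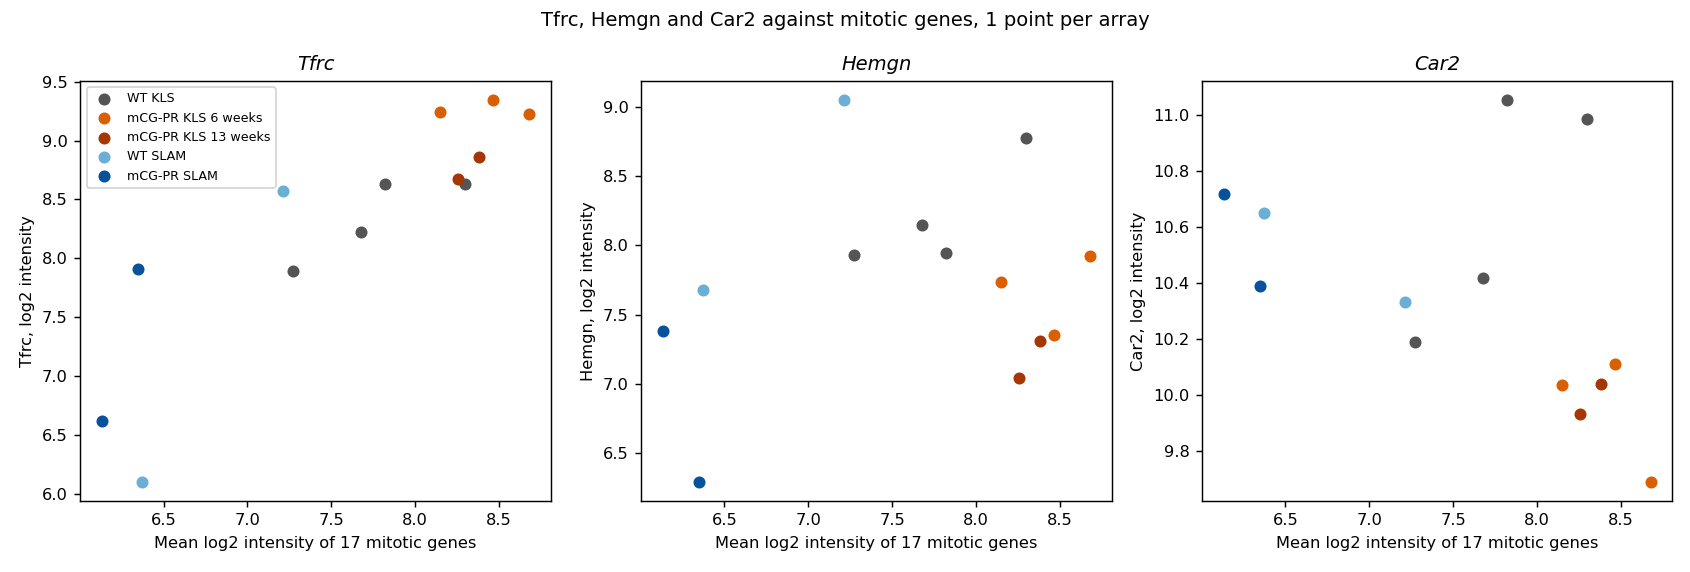
Log2 intensity of Tfrc, Hemgn and Car2 (y axes) against the mean log2 intensity of 17 mitotic genes (x axes); each point is 1 of the 13 arrays, coloured by group. The mCG-PR KLS arrays of 6 weeks are highest for Tfrc (9.23 to 9.34), with mitotic means of 8.15 to 8.68, and the SLAM arrays are lowest in mitotic genes.

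Ordered by group mean, Tfrc ran from mCG-PR KLS of 6 weeks (9.27 ± 0.06, SD, n = 3) through mCG-PR KLS of 13 weeks (8.77 ± 0.13, SD, n = 2) and WT KLS (8.35 ± 0.36, SD, n = 4) to WT SLAM (7.34) and mCG-PR SLAM (7.26). The arrays of the first 3 groups did not overlap between neighbours, while WT KLS overlapped with WT SLAM and WT SLAM with mCG-PR SLAM. Hemgn ran from WT SLAM (8.36) through WT KLS (8.20), mCG-PR KLS of 6 weeks (7.67) and of 13 weeks (7.18) to mCG-PR SLAM (6.84). Among neighbours, the first 2 groups overlapped, as did the last 2. Groups further apart overlapped too. WT SLAM replicate 1 (7.68) lay below mCG-PR KLS 6 weeks replicate 1 (7.73). Similarly, mCG-PR SLAM replicate 1 (7.38) lay above mCG-PR KLS 6 weeks replicate 3 (7.35). For Car2 the only gap between neighbours was that between WT SLAM (10.49) and mCG-PR KLS of 13 weeks (9.98), which set both mCG-PR KLS groups below the other 3. For Gata1, Klf1, Epor, Alas2 and Slc4a1 every neighbouring pair of groups overlapped. The groups were ordered by these same values, and gaps between so few arrays are common. Of all genes, 11% had a gap between WT KLS and mCG-PR KLS of 6 weeks. It was 25% between WT KLS and mCG-PR KLS of 13 weeks, and 30.8% between the 2 mCG-PR ages. For WT SLAM against mCG-PR KLS of 13 weeks the share was not counted.

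Correlations among the 8 genes were mixed in sign. Over the 9 KLS arrays Pearson's r was 0.64 between Car2 and Hemgn and -0.33 between Hemgn and Tfrc, a description of arrays that share genotype and age. Gata1 had r of 0.01 with Klf1 over the same arrays. Tfrc was most like Cdca2, a gene of the dividing cell nucleus (r = 0.97 over 13 and over 9 arrays), and Pdha1, a pyruvate dehydrogenase subunit gene (0.96 and 0.97). Hemgn was most like the granule protein gene Ngp over 13 arrays (0.90) and Adam1a over the 9 KLS arrays (0.92), and Car2 most like Mycs (0.82) and Lrrc4 (0.92). Gata1 was most like Map3k6 (0.93) and Slc7a6os (0.96), Klf1 like Daglb (0.87) and Atp4b (0.89), and Epor like Myo1h (0.83) and Klf13 (0.96). Alas2 was most like Ccpg1 (0.85) and Pole4 (0.93), and Slc4a1 like Tbc1d12 (0.90) and Ly6i (0.93). With so few arrays and 10586 genes to choose from, values of this size need not set a gene apart.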

How the data were processed

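RNA of sorted cells was amplified and hybridised to Affymetrix mouse exon arrays, per the labels' protocols. Intensity per probe set was deposited by the authors as 1 value per array on a linear scale (2.34 to 21748.19); RMA and mm9 are named in the submitters' processing notes, and the version and settings of RMA are not stated there. Of 229581 probe sets, 208397 had 1 gene in the platform annotation, 3965 several and 17219 none; the first kind was used. A gene's value was the median log2 intensity of its probe sets (at least 3), 2099 symbols were updated through RefSeq synonyms, and those whose mean over arrays exceeded the 30th percentile entered two-sided tests in limma 3.58.1 (R 4.3.3) with Benjamini-Hochberg adjustment over 10586 genes and a threshold of 0.05. KLS comparisons used the 9 KLS arrays and the SLAM genotype comparison the 4 SLAM arrays. Comparisons across populations used all 13, with 1 weight per population (1.43 for KLS and 0.450 for SLAM in the fit of 5 groups), because SLAM arrays varied more. On simulated data the KLS fits held false calls near or below the threshold, while the fits of SLAM against KLS and of the interaction gave several times more false calls than it allows, and the SLAM genotype fit recovered none of the changed genes.

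The members, gene lists, fits and alternatives were chosen with earlier results of these data known; the lists of other genes were tried as counts and medians only. The text names the members in each comparison. The rule took from each list the genes that passed (up to 4), otherwise those with the smallest p (up to 2); of lists of other cell types the text names only some of these and gives the rest as counts. For each member it took the genes with the highest correlation (up to 3), of which the first are named. Nothing in the labels ties equal replicate numbers together. Deviations of same-numbered arrays from their group means correlated at -0.04 to 0.08 within KLS groups. In a group of 2 arrays such deviations mirror each other, so these values do not settle whether mice were paired. Values after ± are standard errors unless marked SD. P-values rest on 2 to 5 arrays per group.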

Additional observations from a re-analysis of the deposited data

Results flagged for a closer look

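Klf1 on WT KLS replicate 3 was at 6.48, apart from the other 3 WT KLS arrays (5.91 to 6.00); the gap was 0.846 of the range of that group, above the critical value of 0.829 for 4 arrays. It was the only such array among 16 sets of values looked at, the 8 genes in WT KLS and in mCG-PR KLS of both ages. Chance flags about 1 in 20 sets, so 1 flag among 16 does not set this array apart.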

How the results depend on the processing

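Over both ages, Car2, Hemgn, Tfrc and the 5 other members kept their direction in mCG-PR against WT KLS cells under every alternative in which they were tested, and none passed. Over all 8 comparisons, 53 of 928 member values under an alternative had the other sign, 4 newly passed and 2 no longer did. For these the cause was not tested.

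Counts of genes passing were small in KLS comparisons and moved with most settings. For mCG-PR KLS of both ages the count was 9, of 6 weeks 4, of 13 weeks 1 and for 13 against 6 weeks 1. With the filter at the 50th percentile they were 19 for both ages and 11 at 6 weeks, and mCG-PR against WT SLAM gave 1 instead of 0. Without a filter 1 gene passed at 6 weeks, 0 at 13 weeks and 0 for 13 against 6 weeks. With the mean of probe sets the counts were 17 for both ages, 2 at 13 weeks, 0 for 13 against 6 weeks, 531 instead of 330 for WT SLAM against WT KLS, 1 for mCG-PR against WT SLAM and 2 instead of 0 for the interaction. With dim probe sets left out they were 24, 17, 2 and 0 for the 4 KLS comparisons. With quantile normalisation 1 gene passed at 6 weeks, 15 at 13 weeks, 116 in WT SLAM against WT KLS and 513 instead of 1386 in mCG-PR SLAM against KLS, where the share of higher calls was 131 of 513 against 86 of 1386. With array medians subtracted it was 0 at 13 weeks. With all 13 arrays at equal weights the counts were 0, 1, 0 and 0 in KLS, 1229 and 2394 for SLAM against KLS in WT and mCG-PR, 275 for mCG-PR against WT SLAM and 113 for the interaction. Against WT KLS replicates 3 and 4 alone they were 0 for both ages, 0 at 6 and 0 at 13 weeks, and 213 for WT SLAM against WT KLS. With the replicate number as a block they were 1, 1 and 2 for both ages, 6 and 13 weeks, 189 for WT SLAM against WT KLS and 1 for the interaction. Nothing in the labels says that these numbers pair the mice. Leaving out 1 array gave 0 to 41 calls for both ages, 1 to 43 at 6 weeks, 0 to 14 at 13 weeks, 0 to 17 for 13 against 6 weeks, 94 to 334 and 398 to 1513 for SLAM against KLS in WT and mCG-PR, 0 to 0 for mCG-PR against WT SLAM and 0 to 5 for the interaction. The high counts in KLS came without WT KLS replicate 3 (41, 43 and 14) and, for 13 against 6 weeks, when replicate 1 of the young mCG-PR mice was left out (17).

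Most signs that turned belonged to small values, but not all: with a WT SLAM array left out, Tfrc turned in WT SLAM against WT KLS (otherwise -1.01) and in the interaction (otherwise -0.80). At 6 weeks Alas2 was 0.015 with the replicate block and -0.27 to 0.037 with 1 array left out. At 13 weeks Gata1 was -0.086 with the mean of probe sets, -0.017 with quantile normalisation and -0.022 to 0.20 with 1 array left out, and Klf1 -0.11 to 0.40. For 13 against 6 weeks Car2 was -0.11 with the mean of probe sets and -0.089 to 0.12 with 1 array left out, and Slc4a1 -0.015 with quantile normalisation and -0.050 to 0.19. For WT SLAM against WT KLS Hemgn was -0.16 with the mean, Car2 0.0081 with quantile normalisation and 0.12 with the replicate block, and Alas2 -0.071 against WT KLS replicates 3 and 4 alone; with 1 array left out Alas2 was -0.75 to 0.93, Hemgn -0.52 to 0.85 and Tfrc -2.24 to 0.23. For mCG-PR SLAM against KLS Gata1 was -0.094, Klf1 -0.10 and Epor 0.052 with the mean, and Alas2 -0.24 with dim probe sets left out; with 1 array left out Klf1 was -0.37 to 0.50, Alas2 -0.17 to 0.49 and Tfrc -2.65 to -1.36. For mCG-PR against WT SLAM Slc4a1 was -0.12 with the mean and Tfrc 0.035 with quantile normalisation; with 1 array left out Gata1 was -0.024 to 0.41, Car2 -0.10 to 0.22, Alas2 -0.88 to 0.80, Slc4a1 -0.45 to 0.51 and Tfrc -1.31 to 1.16. For the interaction Alas2 was -0.22 with dim probe sets left out, and Gata1 0.093, 0.064 and 0.081 with quantile normalisation, medians subtracted and the replicate block; with 1 array left out Gata1 was -0.23 to 0.20, Alas2 -0.54 to 1.14, Slc4a1 -0.15 to 0.81 and Tfrc -2.04 to 0.44. Signal over background was not measured.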
